A study of Mus musculus with 24 samples.

Results

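Perivascular and border macrophages were chosen from single-nucleus RNA sequencing of mouse brain by the UMIs they carried (unique molecular identifiers, 1 per counted RNA molecule). The members were chosen by the measured UMIs of 13 genes, above all the border macrophage genes Mrc1, F13a1, Cd163 and Lyve1. Of 204925 kept nuclei in 24 libraries, 119 passed, a share of 0.0581% (95% Clopper-Pearson interval 0.0481 to 0.0695, which covers counting error only). Nuclei were kept with over 500 but under 7000 genes detected, where mitochondrial genes gave under 20% of UMIs. A macrophage had at least 3 UMIs summed over the 4 marker genes, at least 1 of Csf1r and Inpp5d, at most 1 of the microglial genes P2ry12 and Siglech, none of Rbfox3 or Aqp4 and at most 1 of Mog, Mag and Mobp.

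The study compared mice homozygous for the Pdgfb retention allele (Pdgfb ret/ret, called mutant) with heterozygous mice (Pdgfb ret/wt, called control), both of strain B6.Pdgfbtm3Cbet, so that the controls carried 1 copy of the allele too. Each of 6 mutants and 6 controls gave a library from the deep brain, where vessels calcify in mutants, and a library from the cortex, where they do not. In each genotype the older mice (numbers 1 to 3) were 5 months old plus at most 18 days, and the younger ones (numbers 4 to 6) were 4 months old plus 7 to 24 days. All were female except control 6.

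Border macrophages live beside vessels, in the meninges and in the choroid plexus, outside the brain tissue proper. They share the receptor Csf1r with microglia, take up material from blood and cerebrospinal fluid through scavenger and lectin receptors, and in part present antigen on MHC class II molecules. Cells rich in the hyaluronan receptor Lyve1 and cells rich in MHC class II are commonly described as separate groups among them.

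MHC class II genes were detected together in the same macrophage nuclei, as given further on, and the promoters of 3 of them are shown for that reason. They are 300 bases from RefSeq on GRCm38.p6, from 250 before to 50 after the start, in the direction of the gene. H2-Eb1 lies at chr17:34305617-34305916 on the plus strand, H2-Aa at chr17:34287774-34288073 on the minus strand and H2-DMb1 at chr17:34152941-34153240 on the plus strand. Capitals mark GATTGG on either strand, the letters around the inverted CCAAT core of the Y box known from MHC class II promoters.
H2-Eb1: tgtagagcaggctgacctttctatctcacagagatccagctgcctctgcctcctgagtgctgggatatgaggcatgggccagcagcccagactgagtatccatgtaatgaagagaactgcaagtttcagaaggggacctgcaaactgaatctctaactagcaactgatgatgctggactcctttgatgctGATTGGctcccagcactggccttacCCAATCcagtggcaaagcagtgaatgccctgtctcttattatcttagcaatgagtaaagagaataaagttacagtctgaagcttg
H2-Aa: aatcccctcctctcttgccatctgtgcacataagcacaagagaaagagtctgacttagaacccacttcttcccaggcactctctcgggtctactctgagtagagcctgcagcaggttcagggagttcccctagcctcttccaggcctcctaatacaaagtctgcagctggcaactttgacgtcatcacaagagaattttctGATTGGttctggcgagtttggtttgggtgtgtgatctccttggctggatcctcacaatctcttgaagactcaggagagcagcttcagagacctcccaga
H2-DMb1: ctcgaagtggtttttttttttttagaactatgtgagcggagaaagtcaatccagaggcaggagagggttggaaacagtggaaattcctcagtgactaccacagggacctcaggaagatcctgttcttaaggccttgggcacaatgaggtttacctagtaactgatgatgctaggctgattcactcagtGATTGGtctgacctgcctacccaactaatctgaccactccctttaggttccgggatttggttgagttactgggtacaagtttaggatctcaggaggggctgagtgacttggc

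The shorter ATTGG was searched first and was in 10248 of 27025 promoters of this length (37.9%). The search was then narrowed, after the matches were seen, to GATTGG, which was in 4474 (16.6%). Of the 8 MHC class II genes with a promoter in the table, 7 held GATTGG, all but H2-DMa. A match describes letters and is not a binding site. H2-Ab1, Cd74 and Ciita had no entry in the promoter table.

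The 24 libraries held 23625232 to 96459036 UMIs. Cortical libraries fell into 2 sets by depth: mutant 5, mutant 6 and control 5 held 71799624 UMIs or more, and the other 9 held 49807261 or fewer. Those 3 libraries gave 22 of the 32 cortical macrophages, 856 of the 1237 cortical microglia and 28561 of the 79967 kept cortical nuclei. Any pair of libraries shared at most 1.99% of the smaller library's barcodes, 30 of the 119 macrophages had a barcode also used by a kept nucleus of another library, and no barcode was a macrophage in 2 libraries.

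The label was checked against genes that the rule did not use. Of 32 border macrophage identity genes, 27 were more than 2-fold higher in the 119 nuclei than in 4063 microglia, and 1 was more than 2-fold lower. Of 15 homeostatic microglia genes, 14 were more than 2-fold lower. These counts pool all 119 nuclei, and nuclei with Ccr2 or MHC class II UMIs differed from the others, as given further on. Over the 8864 genes with a UMI in 5% of either kind, 7.10% were more than 2-fold higher and 6.61% more than 2-fold lower. Microglia were nuclei with at least 2 UMIs of P2ry12 and Siglech and none of the 4 marker genes. The rule chose both kinds by these transcriptomes, so the contrasts of level between macrophages and microglia are descriptions with no test.

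The 4 marker genes differed widely in how many nuclei they brought in. Mrc1, the mannose receptor (chromosome 2, 14229392 to 14332057), had a UMI in 106 of the 119 nuclei. F13a1, a coagulation factor subunit made by tissue macrophages (chromosome 13, 36867178 to 37050244), had one in 97. Cd163, the haemoglobin scavenger receptor (chromosome 6, 124304656 to 124330527), had one in 38, and Lyve1 (chromosome 7, 110850607 to 110863239) in 11. Positions are on GRCm38 from GENCODE M21. Oligodendrocytes and neurons should lack these genes, and Mrc1 had a UMI in 0.33% of the former and 1.36% of the latter, while F13a1 had one in 0.234% and 1.66%. The median depth was 2000 UMIs in macrophages, 2737 in oligodendrocytes and 12078 in neurons.

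The median sum of the 4 marker genes was 10 UMIs and the highest 82. At the threshold, 15 members had exactly 3 UMIs, with a median depth of 1510, and neither Cd163 nor Lyve1 was found in them. Just outside it, 21 nuclei had exactly 2, with a median depth of 1974, and 2 of them had a UMI of Cd163. P2ry12 was found in 1 of the 15 and in 5 of the 21, and Siglech in 3 and 1.

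Every deep brain library held macrophages, and 8 of 12 cortical libraries did. In the deep brain the mutants had 4 to 13 nuclei with a median of 9.5, and the controls 2 to 12 with a median of 4.5. In the cortex the mutants had 0 to 7 with a median of 2.5, and the controls 0 to 9 with a median of 1. The ranges of the genotypes overlapped in both regions.

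**Figure D1:**
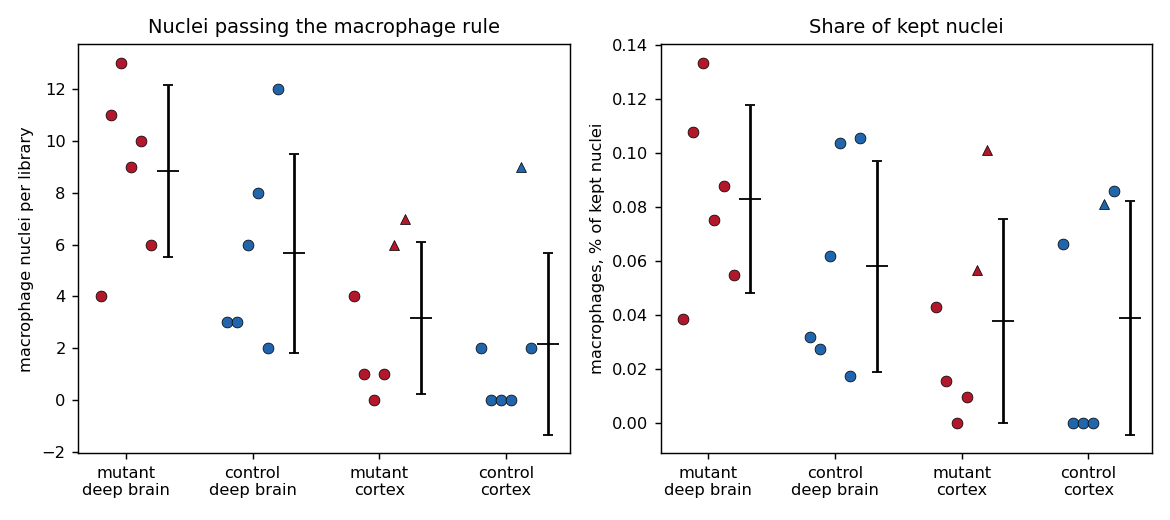
Macrophage nuclei per library (left, count) and as a percent of kept nuclei (right), for 6 libraries in each group; points are libraries, triangles are the 3 deep cortical libraries, and black marks are the mean and SD. The deep brain groups overlap, with shares from 0.0386 to 0.133% in mutants and 0.0177 to 0.106% in controls.

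As a share of kept nuclei, deep brain macrophages were 0.0829% ± 0.0346 (SD, n = 6) in mutants and 0.0581% ± 0.039 (SD, n = 6) in controls. The difference of 0.0249 percentage points was within the spread between mice (two-sided exact permutation test, p = 0.266, where 0.00216 was the smallest p possible). With P2ry12 and Siglech both required to be 0 the difference was 0.0371 points with p = 0.039 by the same exact test, and with nuclei thinned to 1000 UMIs it was -0.000962 points with p = 0.961. Thinning lowered the counts of all genes of the rule, those that exclude nuclei too, so nuclei could leave or enter the set. In the deep brain mutant 1 had 8 macrophages thinned and 4 unthinned, and control 2 had 8 and 3. Mutant 3 had 9 and 13. In the cortex the shares were 0.0377% ± 0.0377 (SD, n = 6) and 0.0389% ± 0.0431 (SD, n = 6), a difference of -0.00119 points (exact permutation p = 0.991).

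The deep brain share exceeded the cortical share in 8 of 12 mice, by 0.0322 points on average (two-sided exact sign-flip permutation test over 12 mice, p = 0.101). Among the 9 mice with shallow cortical libraries the difference was 0.0517 points (exact permutation p = 0.0312), and among the 3 with deep cortical libraries it was -0.0263 points (exact permutation p = 0.5, where 0.25 was the smallest possible). Thinned to 1000 UMIs, the shares were 0.0718 and 0.0699%, a difference of 0.0019 points (exact permutation p = 0.923). Thinning also changed which nuclei were counted. In control 4 it kept 1493 of 6261 cortical nuclei and 7586 of 7715 deep brain nuclei. The region difference was 0.0452 points in mutants and 0.0191 in controls, which did not differ beyond their spread (exact permutation p = 0.496). Per 100 microglia and macrophages the deep brain held 2.99 ± 1.51 (SD, n = 12) and the cortex 2.57 ± 2.55 (SD, n = 12). On this measure the deep brain was higher in 7 of 12 mice and lower in 5. The 9 mice with shallow cortical libraries did not pass the threshold of 0.05 on it. Median depth of kept nuclei ran from 804 UMIs (control 4) to 6494.5 (control 6) in the shallow cortical libraries. In the deep brain libraries it was 3547 to 7314.5.

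Among genes outside the rule, F630028O10Rik, a non-coding transcript on chromosome X, stood highest over microglia, at 1134 CPM (the usual counts-per-million scale, relative to all UMIs of the summed nuclei) against 1.85, with a UMI in 72.3% of macrophages and 0.418% of microglia. Genes at 100 CPM or more with a UMI in at least 10% of macrophages numbered 2336, and 134 of these were over 4 times as high as in microglia, with 10 CPM added to both. Of 2251 genes at 100 CPM or more in microglia, 88 were more than 4-fold lower in macrophages. These levels are not corrected for gene length, so they are compared within a gene only.

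Of 18 scavenger and endocytosis genes, 8 were more than 2-fold higher than in microglia (44.4%) and 1 more than 2-fold lower, while Marco, Cubn and Amn had no UMI. The share higher over the 8864 genes with a UMI in 5% of either kind was 7.10%. The gene lists were not held to that floor, so it is no like measure for them. Of these 18 genes, 14 had a UMI in 5% of macrophages. Dab2, an adaptor of endocytosis, had 710 CPM in the lowest mouse, a median of 1240 over 12 mice and 5185 in the highest, while microglia had 16.2 to 30.4. Stab1, a scavenger receptor for modified lipoproteins and matrix fragments, had 821, 1578 and 4346 CPM, and microglia 148 to 237. Both were higher in macrophages in all 12 mice, with no overlap. Colec12, a scavenger receptor with a lectin domain, had 474 CPM against 8.77 in microglia, and Msr1, the class A scavenger receptor, 171 against 3.12.

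Of 12 lectin and Fc receptor genes measured, 7 were more than 2-fold higher than in microglia (58.3%, beside the 7.10% over 8864 genes) and none more than 2-fold lower. A UMI in 5% of macrophages was found for 11 of the 12. Cd209f, a C-type lectin, had 360 CPM in macrophages and no UMI in 4063 microglia. Mgl2 and Clec10a, which bind galactose-type sugars, had 192 and 168 CPM against 0.0975 and 0.195. Fcgr2b, the inhibitory Fc receptor, had 460 against 136. Complement genes differed less: C1qa, C1qb and C1qc, the subunits of the first complement component, had 770, 866 and 820 CPM against 853, 908 and 973 in microglia.

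MHC class II genes stood next. The invariant chain Cd74 had 634 CPM in the lowest mouse, a median of 2361 and 8849 in the highest, against 2.85 to 141 in microglia. The antigen-binding chains H2-Eb1, H2-Ab1 and H2-Aa had 1184, 1112 and 977 CPM against 4.09, 7.9 and 4. The peptide loader subunits H2-DMa and H2-DMb1 had 96.3 and 99.8 CPM against 70.2 and 33.8. Of the 11 MHC class II genes 6 were more than 2-fold higher than in microglia (54.5%, beside the 7.10% over 8864 genes) and none more than 2-fold lower. A UMI in 5% of macrophages was found for 7 of the 11.

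**Figure D2:**
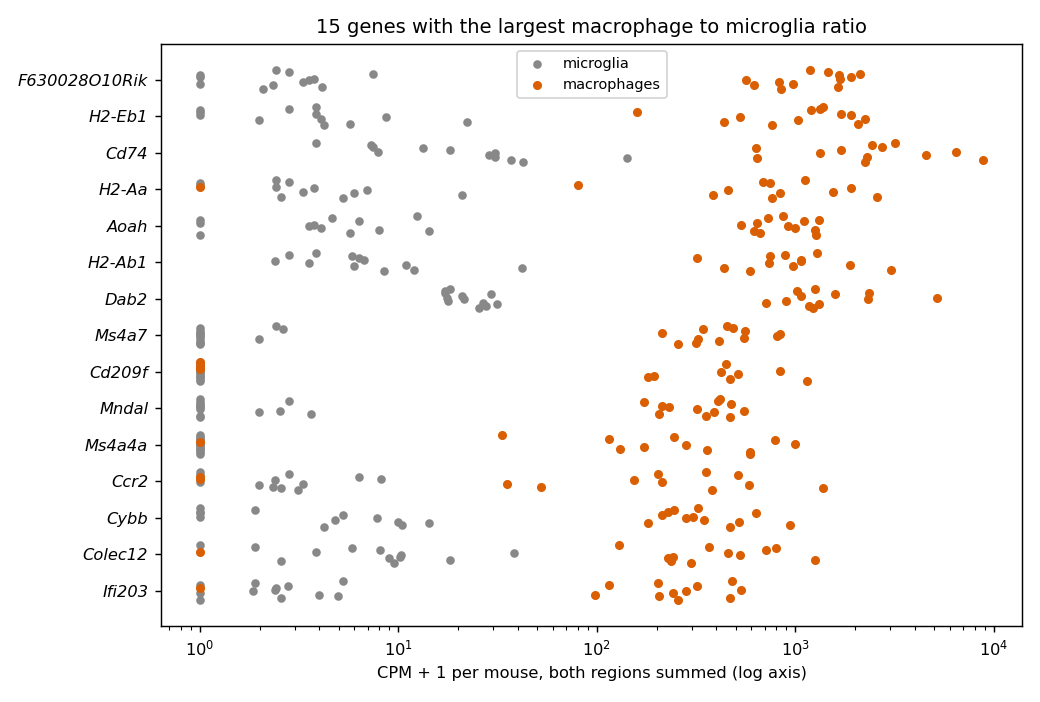
CPM + 1 on a log axis for the 15 genes with the largest ratio of macrophages to microglia; each point is 1 of 12 mice with both regions summed, orange for macrophages and grey for microglia. Cd74 spans 634 to 8849 CPM in macrophages and 2.85 to 141 in microglia; points at 1 are mice with no UMI.

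Apoe, the lipid carrier, had 3283 CPM in the lowest mouse, a median of 5472 and 10526 in the highest, against 180 to 510 in microglia. It was higher in all 12 mice, although 56.9% of oligodendrocytes also had an Apoe UMI. Pltp, which transfers phospholipids, had 271 CPM against 5.85, and Cp, a copper-carrying ferroxidase, 403 against 11.9. The growth factor Igf1 had 292 against 6.73 and the platelet-derived growth factor gene Pdgfc 157 against 8.29. Of 15 genes the study used for activated microglia, 10 had a UMI in 5% of macrophages. More than 2-fold higher in macrophages than in microglia were 7 of the 15 (46.7%, beside the 7.10% over 8864 genes), and none was more than 2-fold lower. Among the 7 were Apoe, Cd74, Igf1 and Myo5a, a myosin motor with 1080 CPM against 133. Spp1, Cst7, Lpl and Itgax had UMIs in 5, 1, 1 and 1 of the 119 nuclei.

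Genes of microglia were low. Sall1, a transcription factor of microglial identity, had no UMI in the 119 nuclei, which allows a share of up to 2.52% of nuclei with a UMI, and 268 CPM in microglia. Tmem119, a microglial surface protein, had a UMI in 3 nuclei. Csf1r, which the rule used, had 2271 against 4225 CPM.

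The nuclei differed from one another in MHC class II. At least 1 UMI of Cd74, H2-Aa, H2-Ab1 or H2-Eb1 was found in 64 of 119 nuclei (53.8%), and 58 had at least 2. Most of the 15 members with exactly 3 marker UMIs, the lowest sum the rule allows, were among the 64. With a marker sum of at least 4, Cd74 had 2797 CPM, against 3045 over all 119. The genes occurred in the same nuclei: of 50 with an H2-Ab1 UMI, all 50 had one of the other 3 genes, while 14 of the 69 without H2-Ab1 did. Ciita, the coactivator that switches on MHC class II transcription, had a UMI in 22 nuclei, all with MHC class II. H2-DMb1 had a UMI in 18 of the 64 nuclei with MHC class II and in 1 of the 55 without. Of the 11 nuclei with Lyve1, 1 had an MHC class II UMI, against 63 of the 108 without. Lyve1, like Cd163, Mrc1 and F13a1, was used to choose the nuclei, so such splits describe chosen nuclei and support nothing further. These are counts over nuclei that share libraries, and the genes compared were chosen after their values were seen.

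The share with MHC class II differed between nuclei with and without other genes, which were chosen after their values were seen. Among nuclei with a UMI of Cd209f 5 of 25 had MHC class II, and among those with Colec12 9 of 39, with Igf1 9 of 38 and with Cd163 12 of 38. With Stab1 36 of 82 did and without it 28 of 37, and with Cbr2, a carbonyl reductase, 8 of 24 and 56 of 95. The share was higher with the lectin Mgl2, at 23 of 32 against 41 of 87, and with the rule gene Mrc1, at 60 of 106 against 4 of 13. It was lower with the lectin Clec10a, at 11 of 27 against 53 of 92, and with the rule gene F13a1, at 45 of 97 against 19 of 22. Among nuclei with Ccr2, a chemokine receptor of monocytes, 21 of 24 did, and among those with Klra2, a lectin-like receptor, 20 of 23. Only 2 of the 24 nuclei with Ccr2 had a Cd163 UMI. Thinned to 1000 UMIs, which left out 4 nuclei, 17 of 19 nuclei with Ccr2 and 1 of 16 with Cd209f had MHC class II. Median depth was 1706.5 UMIs with MHC class II and 2261 without.

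**Figure D3:**
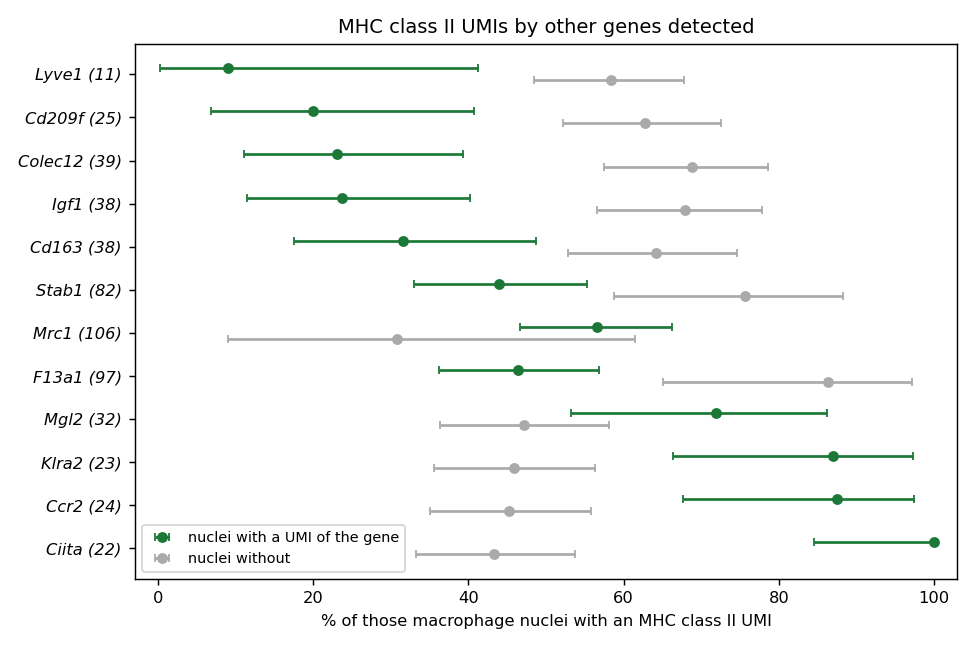
Percent of macrophage nuclei with an MHC class II UMI, among nuclei with a UMI of each gene (green, number in brackets) and without (grey), with 95% Clopper-Pearson intervals that cover counting error only. Lyve1, Cd209f, Colec12, Igf1 and Cd163 lie low, at 9.09 to 31.6%, and Klra2, Ccr2 and Ciita high, at 87 to 100%.

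Summed over nuclei, those with a Ccr2 UMI had 291 CPM of Stab1 and 513 of Dab2, and those without had 1910 and 1766. None of the 24 with Ccr2 had a UMI of Cd209f, Cbr2 or Igf1, against 25, 24 and 38 of the 95 without. Ms4a7 had 68.4 CPM with Ccr2 and 567 without, F630028O10Rik 1026 and 1162, and Lyz2 1865 and 851. These genes were chosen after their values were seen. Of 13 monocyte genes 9 were more than 2-fold higher than in microglia (69.2%), and of 12 dendritic cell genes 5 (41.7%). Only 3 and 5 of these lists had a UMI in 5% of macrophages. The 7.10% over 8864 genes, which were held to that floor in either kind, is thus no like measure. By the same count 11 of 12 fibroblast genes were higher (91.7%), with 223 of their 277 UMIs in 1 nucleus. At least 3 UMIs of the monocyte list were found in 16 nuclei and of the dendritic cell list in 22. Ly6c2, a monocyte surface protein, had a UMI in 5 nuclei, Flt3, a receptor of dendritic cell lineage, in 6 and Zbtb46, a dendritic cell transcription factor, in 16, while Xcr1 and Ccr7 of dendritic cells had none. Monocyte list genes summed to 68.8 to 2428 CPM in the 6 mutants and 79.2 to 969 in the 6 controls, with Ace and Treml4 at 0. The part of monocytes or dendritic cells in these counts was not tested.

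MHC class II was found in macrophages of every mouse. The share of nuclei with it ran from 25% to 70% in mutants, with a median of 55.8%, and from 20% to 100% in controls, with a median of 50%. The pooled shares were 38 of 72 nuclei (52.8%, Clopper-Pearson 40.7 to 64.7) and 26 of 47 (55.3%, 40.1 to 69.8). By region, Cd74 was found in 54% of deep brain and 46.9% of cortical macrophages, and Cd209f in 14.9% and 37.5%. These shares pool nuclei over mice with no test, and 22 of the 32 cortical nuclei came from 3 libraries.

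Genes of vascular cells and fibroblasts appeared in few nuclei. At least 3 UMIs of endothelial, mural or fibroblast genes were counted in 11 of 119 (9.24%), against 1.01% of microglia. A single nucleus of mutant 3 deep brain had 15958 UMIs, 257 of them from those lists, 569 of Trpm3, an ion channel gene, and 3 of F13a1 with none of Mrc1, Cd163 or Lyve1. The 11 nuclei held 712 of the 764 Trpm3 UMIs in the whole group. Scrublet called 11 macrophages doublets (9.24%), against 2.51% of microglia. All 11 were nuclei of mutants, among them a nucleus of mutant 4 deep brain with 8604 UMIs. Its calls covered 4.28 to 8.58% of nuclei in deep brain libraries, but 0.0332 to 50.3% over all libraries, so it did not work in all cortical ones.

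Gene levels were compared between genotypes on counts summed per mouse over both regions, with edgeR's quasi-likelihood test. Control 2 had 3 macrophages and was left out, which gave 6 mutants and 5 controls. Of 335 genes tested none passed at an adjusted p of 0.05 (0% called), while 17 had an unadjusted p under 0.05. DESeq2 also called none, with 22 under 0.05 unadjusted. With no filter on low counts edgeR called 53 of 14565 genes, all higher in mutants. The 6 mutants held 176618 macrophage UMIs and the 6 controls 103873, and 1 nucleus of mutant 3 alone gave 15958. All macrophages that Scrublet called doublets, as given above, were nuclei of mutants too. The part of these sizes and of such nuclei in the direction was not tested.

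Mrc1, which helped to choose the nuclei and is given with no test, had 1452 CPM in the lowest mutant, a median of 2764 and 3799 in the highest, and 2629, 3170 and 7092 in the 5 controls. Cd74 had 641, 2269 and 8849 in mutants and 634, 2736 and 6482 in controls (log2 fold change 0.27 ± 0.52 SE, edgeR adjusted p = 0.945). F630028O10Rik had 563, 836 and 1645 in mutants and 1186, 1664 and 2109 in controls (-0.61 ± 0.29, edgeR adjusted p = 0.869). The ranges of all 3 overlapped. For F630028O10Rik the overlap with the 5 controls rested on mutant 2, and the other mutants had 563 to 968 CPM. Cd209f was found in all 6 mutants, at 180 to 1144 CPM, and in 2 of 6 controls, at 445 and 839. This difference was not tested. The mutants held 23602 to 38994 macrophage UMIs each and the controls 4712 to 31189, so a low level could be missed more easily in controls.

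**Figure D4:**
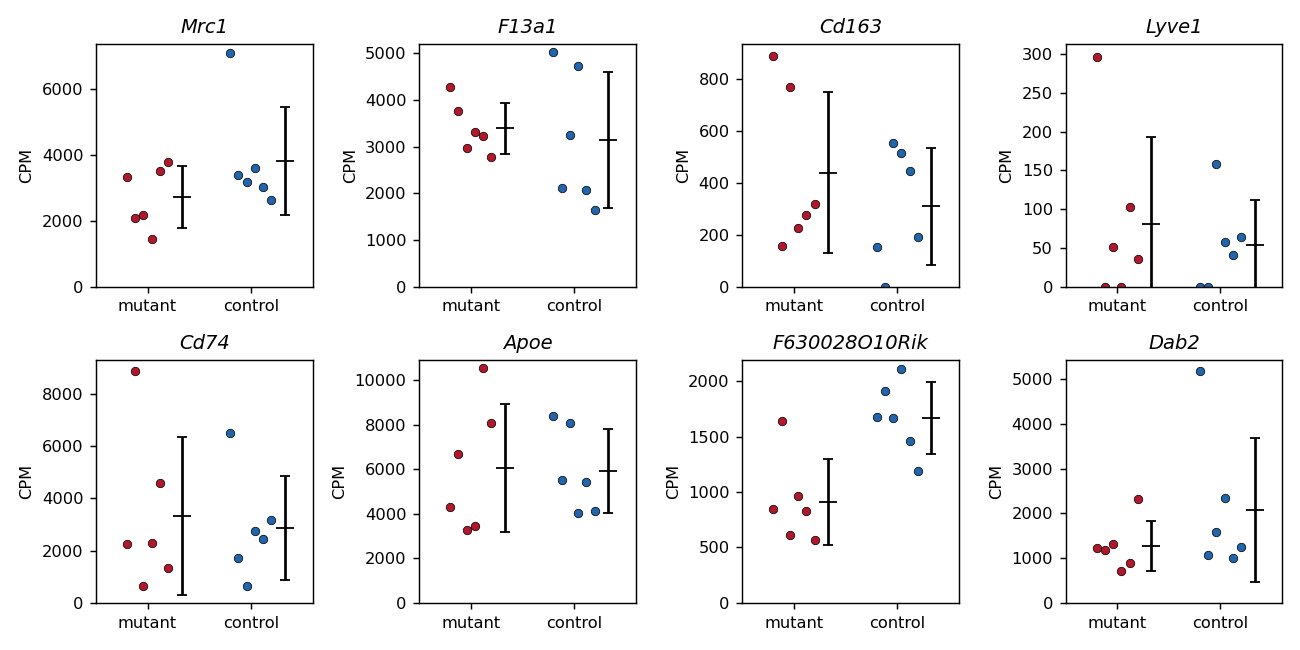
Macrophage CPM of 8 genes per mouse with both regions summed, for 6 mutants (red) and 6 controls (blue); points are mice and black marks the mean and SD. The genotypes overlap in each panel, including Mrc1 at 1452 to 3799 CPM in mutants and 2629 to 7092 in controls.

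By list, none of the 4 MHC class II genes tested, the 11 border identity genes, the 9 lysosome genes or the 5 scavenger genes passed in either direction. Their median log2 fold changes were 0.35, -0.01, 0.38 and -0.25, beside 0.03 over all 335 genes. The smallest p-values belonged to Ptgds, the prostaglandin D synthase, with 482 to 16874 CPM in mutants and 76.3 to 994 in controls (log2 fold change 3.35 ± 0.87 SE, edgeR adjusted p = 0.303), and to Ank2, Epsti1, Meg3 and Negr1, with adjusted p from 0.303 to 0.523 in edgeR. Ptgds was highest in mutant 3, where 1 nucleus with vascular and fibroblast UMIs gave 15958 of 38994 UMIs. Mutants 1 and 2, at 4788 and 4777 CPM, also lay above all controls. Mutants 4, 5 and 6, at 484, 482 and 528 CPM, lay within the range of the controls. The summed marker genes of astrocytes had a median of 1311 CPM over the mutants and 437 over the controls, and those of neurons, a list that holds Meg3, 1884 and 1382, with overlapping ranges. Their part in these values was not tested.

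In the deep brain alone, 5 mutants and 3 controls had at least 5 macrophages. None of 228 genes passed in edgeR (0% called) and 8 had an unadjusted p under 0.05, against 10 in DESeq2, which also called none. With no filter on low counts edgeR called 22 of 13451, all higher in mutants. Over all 6 deep brain libraries of each genotype, mutants held 126500 macrophage UMIs and controls 71544. Ank2, Psap, Maml3 and Pip4k2a were among the genes with the smallest p-values. Psap, the precursor of lysosomal lipid-binding saposins, had 564 to 1312 CPM in mutants and 498 to 627 in controls (0.96 ± 0.33, edgeR adjusted p = 0.931).

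In the cortex 2 mutants and 1 control could be compared, so a single library stood for the controls. Of 296 genes 1 was called in edgeR (0.338%), Adarb2, an RNA-editing enzyme family gene of interneurons, and DESeq2 called none. All 43 of its UMIs came from mutant 6, and mutant 5 and the control had none, so no fold is given. Between regions, only mutants 5 and 6 had 5 macrophages in both, and none of 153 genes passed (0% called), with 3 under 0.05 unadjusted in edgeR and none in DESeq2.

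Finally, the genotype effect in deep brain macrophages was compared with that in microglia of the same 5 mutants and 3 controls. Of 7639 genes 10 differed in edgeR (0.131% called). The effect was more positive in macrophages for 8 (0.105%) and more negative for 2 (0.0262%). DESeq2 called none, with 170 at an unadjusted p under 0.05, where edgeR had 371. The 8 were Trpm3, Magi2, Fn1, Dpyd, Nebl, Rora, Auts2 and Ccser1. Of the 11 macrophages with vascular or fibroblast UMIs 3 lay in these libraries, 1 of mutant 2 and 2 of mutant 3, and without them 1 gene was called and it was a gene with a more negative effect. Without mutant 3 none was called, and without mutant 4, control 3, control 4 or control 6 the count was 1.

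Cd74 was the gene that stayed called without those 3 nuclei. In macrophages it had 166 CPM in the lowest mutant, a median of 1348 and 5200 in the highest, and 634, 2736 and 3857 in the 3 controls. In microglia it had 21.7 to 159 CPM in the mutants and 3.37 to 14 in the controls, with no overlap. These microglia were chosen by UMIs of P2ry12 and Siglech, which the study reported as down-regulated in activated microglia. The genotype effect was lower in macrophages by a log2 value of -2.82 ± 0.59 (SE, edgeR adjusted p = 0.0056). Leaving out 1 mouse at a time moved that value between -4.12 (without control 3) and -1.75 (without control 6). It was -1.99 without mutant 3, -3.45 without mutant 2 and -3.49 without mutant 5. The same fits gave adjusted p from 1.09e-05 to 0.925 in edgeR, and the call was lost without mutant 3, mutant 6, control 4 or control 6. It was also lost in DESeq2 (adjusted p = 0.999), with at least 10 nuclei per library, which left 3 mutants and control 6 alone, assumed to vary like the mutants (edgeR adjusted p = 0.0518), without Scrublet doublets (edgeR adjusted p = 0.0611) and with no term for the mouse (edgeR adjusted p = 0.705).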

How the data were processed

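Per the labels and the study's methods, nuclei of frozen deep brain and cortex were sequenced with the 10x 5′ kit and aligned to mm10. The submitters' processing notes name bcl2fastq 2.20.0.422 and Cell Ranger 5.0.1. The authors deposited UMI counts per gene and barcode, not normalized, for the barcodes in the Cell Ranger output. Here counts were summed over macrophage nuclei per library or mouse and scaled to CPM. Gene tests used edgeR 4.0.16 (quasi-likelihood, filterByExpr minimum count 10, TMM, Benjamini-Hochberg over all genes tested), with libraries or mice of at least 5 macrophages, and DESeq2 1.42.0 (R 4.3.3) as an alternative. Shares were tested by exact permutation with scipy 1.17.1. Doublets were called with Scrublet in scanpy 1.11.5 and kept in the main results. The tests were tried on simulated counts. Replicates were separate mice.

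The members and gene lists were chosen with earlier results of these data known. Named genes were those of the rule, up to 4 of highest CPM per list, up to 10 called genes per direction and test or else the 5 of smallest p, the 15 highest and 10 lowest against microglia and the study's activated microglia genes. The GATTGG motif and other genes were named after their values were seen. Leaving out macrophages with vascular or fibroblast UMIs and splitting cortical libraries by depth were chosen after seeing the data. Some genes that this rule names are not reported here.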

Additional observations from a re-analysis of the deposited data

Results flagged for a closer look

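Among 48 groups of 6 values examined, 8 held a mouse far from the other 5. The cut-off is set for about 1 group in 20 among normally distributed values, which these values from few nuclei need not be. Control 1, with 5 macrophages, stood apart in Mrc1 at 7092 CPM (others 2629 to 3591) and in Dab2 at 5185 CPM (others 1012 to 2337). Mrc1 and Lyve1 helped to choose the nuclei, so their values are a description although they are counted among the 8. Mutant 1 stood apart in Cd209f at 1144 CPM and Lyve1 at 297 CPM. Mutant 2 had 1645 CPM of F630028O10Rik, mutant 6 had 2322 of Dab2, mutant 3 had 1257 of Colec12 and control 3 had 634 of Cybb.

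The genotype effect in deep brain macrophages differed from that in microglia for 10 genes by the interaction term in edgeR. On the log2 scale the difference was 4.20 for Trpm3, 4.71 for Magi2, 3.03 for Rora, 2.68 for Auts2, 4.46 for Ccser1 and -2.82 for Cd74. Leaving out 1 mouse gave 1.84 (mutant 3) to 3.47 (control 4) for Rora and 1.94 (mutant 3) to 3.75 (control 4) for Auts2. Trpm3 fell to 2.86 and Magi2 to 3.76 without mutant 3, and Ccser1 to 3.37 without mutant 4. Without control 6 the controls held no macrophage UMI of Trpm3, Magi2 or Ccser1, so those fits give no size. The fitted values of 10.46 for Fn1, 9.94 for Dpyd, 9.29 for Nebl and -8.24 for Gtf2h2 rest on a group with no UMI in macrophages, depend on the prior count and are no measure of size.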

How the results depend on the processing

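Share differences are in percentage points, and thinning changed which nuclei passed the rule. For deep brain mutants against controls, thinning to 1000 UMIs turned the direction (-0.000962) and requiring P2ry12 and Siglech at 0 passed the threshold (0.0371); leaving out 1 mouse gave 0.0148 to 0.0344. For the cortex the direction turned with thinning (0.0183) and with P2ry12 and Siglech at 0 (0.0101), and leaving out 1 mouse gave -0.0138 to 0.00821. For deep brain against cortex, mice with deep cortical libraries turned the direction (-0.0263, and -0.268 per 100 microglia and macrophages). The others passed the threshold as a share of kept nuclei (0.0517), but not per 100 microglia and macrophages. Leaving out 1 mouse gave 0.023 to 0.0409, passing without control 5. Thinning also turned the region difference by genotype (-0.0192). With no filter on low counts, genotype tests called 22 genes in the deep brain, 53 per mouse and 0 in the cortex, and the region test 1; a minimum count of 5 called 0 in the cortex and 2 between regions, and DESeq2 called 0 in the cortex. The 10 genes of the comparison with microglia became 0 in DESeq2, 5 with no filter, 2 at a marker sum of 4, 0 with 10 nuclei per library (a single control, control 6), 0 without Scrublet doublets, 1 without the nuclei with vascular or fibroblast UMIs, 0 with no replicate block and 0 to 11 leaving out 1 mouse. The causes were not tested.

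Deviations of same-numbered mutants and controls had correlations of -0.18 to 0.11 over 5 pairs. With few nuclei per mouse these values cannot exclude an effect shared by number. The numbers were not taken as pairs in the main tests, although the mice numbered 1 to 4 have the same age in both genotypes. Cortical libraries numbered 1 to 4 were also shallow in both genotypes, and both numbered 5 were deep, while those numbered 6 differed. The replicate block gave p = 0.344 for the deep brain share and p = 1 for the cortex by exact permutation, p = 0.406 for the region difference by genotype, and 0 genes in the deep brain and 0 per mouse, as did the age-matched block. The genotype by region interaction could not be fitted, because no control had 5 macrophages in both regions, nor could the cortical block, 10 nuclei per library or leave-one-out fits in the cortex and between regions. With a median of 2000 UMIs per nucleus, 335 genes per mouse passed the filter at a minimum count of 10, and 1101 at 5, where none was called.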
